A study of Mus musculus with 2 samples.

Results

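Collagens, keratins and the collagen-binding protein Sparc were followed in the RNA of invariant natural killer T (iNKT) cells at stage 1 of their development in the mouse thymus, a T lineage that should express few of these genes. The members were all genes whose symbol begins with Col, a number, a and a number, or with Krt and a number, together with Sparc. This pattern found 52 of the 16386 genes in the files. Col4a3bp matched by its letters alone: it encodes a ceramide transfer protein that RefSeq names Cert1, and it was set apart. That left 51 members: 31 collagens, 19 keratins and Sparc. RefSeq lists 100 mouse genes with such names; those without a row in the files were not analysed here.

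The study set wild-type cells against cells without Uhrf1 (Uhrf1 KO). Uhrf1 encodes a protein that recognises newly copied, half-methylated CG sites and brings the maintenance methyltransferase to them. Both groups were C57BL/6 mice at 5 weeks of age, and each had 1 library. The sources used here do not say how Uhrf1 was deleted, how many mice were pooled or how the cells were gated. Replicates are lacking, so the differences below could not be tested and carry no p-value.

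Collagens are mostly secreted proteins built from 3 chains wound into a triple helix. Fibril-forming types make the tensile fibres of connective tissue, type IV makes the sheet under epithelia and vessels, and other types decorate or link these. Keratins are the intermediate filaments of epithelial cells and are built from pairs of a type I and a type II chain. In the thymus, fibroblasts, vessels and capsule are the known sources of most collagens, and thymic epithelial cells are the known source of keratins.

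Levels are FPKM, fragments scaled to transcript length and library size. A gene is said to have risen or fallen where log2((KO FPKM + 1) / (WT FPKM + 1)) reached 1 in size. This scale shrinks the changes of low genes. Folds are ratios of the scaled counts with 95% Clopper-Pearson intervals from the reads of both libraries. The intervals hold counting error alone, since 1 library a genotype gives no spread between mice or libraries. Reads made by PCR are not separate molecules, so even the counting error may be understated. A fold against a library with 0 reads is a lower bound, set against a floor of 3 reads in that library. The wild-type library held 26005823 reads and the KO library 12189849, so a gene seen in the KO alone is listed at 0 at the greater depth. An exact 0 in these files can also be a failed estimate. Lower bounds and counts of genes with reads in 1 library hold only where the 0 is a true absence of reads. The targeted gene, Uhrf1, stood at 35.3 FPKM in the wild-type library and at 0.626 in the KO library. The libraries also stood apart in markers of other cells. The summed FPKM of 9 macrophage genes went from 312 in wild-type to 3008 in KO cells. Apoe alone held 246 and 2676.5 of these sums. Of the 9 genes 8 had a higher FPKM in the KO and none a lower one. The sum of 9 erythroid genes went from 326 to 1351, and that of 20 glial and neuronal genes from 202 to 717. In wild-type cells Cnp and Mbp held 113 and 54.4 of that 202. Whether the KO library is mixed with RNA of other cells or tissues was not tested, and every fold of Sparc, a collagen or a keratin below compares the libraries as they are.

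Of the 51 members 14 rose in the KO and 4 fell. Among all 16386 genes 13.7% rose and 16.0% fell by the same rule, against 27.5% and 7.84% of members. The same 13.7% and 16.0% are the background of every family and list count below. The other 33 members did not pass. With a pseudocount of 5 in place of 1 the counts were 8 and 0, and with scaled counts in place of FPKM 20 and 15. At a mean FPKM of 1 or more, 13 of 17 members rose and 3 fell, where 21.3% and 23.6% of such genes did; members that entered through a high KO value had to differ, so nothing is read from this count. The median log2 ratio was 0 over the 51 members and 0 over all genes. Reads were found in both libraries for 18 members, in the KO alone for 9, in the wild type alone for 12, and in neither for 12. Over all genes 5.48% had reads in the KO alone and 11.1% in the wild type alone, against 17.6% and 23.5% of members. Both shares were above those of genes at large. However, 13.7% of members reached 1 FPKM in the wild type, against 58.0% of all genes. Low genes are more prone to reads in a single library, so these shares were not read as a trait of the members. The members together took 0.0120% of the reads of the wild-type library and 0.0618% of those of the KO library.

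**Figure D1:**
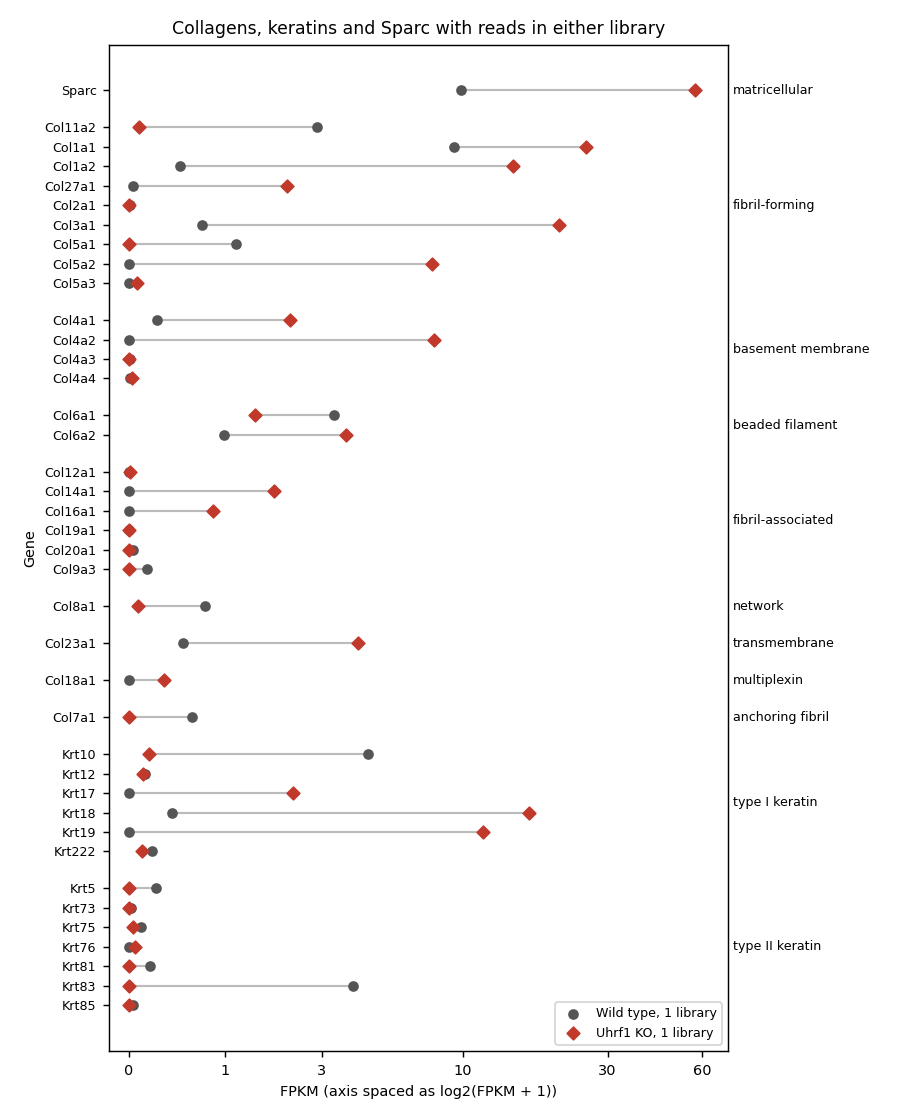
FPKM of the 39 members with reads in either library (x axis, spaced as log2(FPKM + 1)), by family; circles are the wild-type library and diamonds the KO library. Sparc, Col1a1, Col3a1, Krt18, Col1a2 and Krt19 have the highest KO values, while Krt10, Krt83 and Col11a2 lie higher in the wild type.

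Sparc, which binds collagen and takes part in fibril assembly, was the highest member in both libraries. Its FPKM was 9.82 in wild-type cells and 56.8 in KO cells, on 610 and 1608 reads. It rose 5.62-fold (interval 5.12 to 6.18), and it supplied 24.2% of the members' summed FPKM in wild-type cells and 31.3% in KO cells. The gene lies on chromosome 11, 55394159 to 55420080 in mm10.

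Fibril-forming collagens held most of the collagen signal. Of 10 members 5 rose and 2 fell, and their summed FPKM was 14.5 in wild-type and 71.3 in KO cells. Col1a1, the α1 chain of type I collagen, had an FPKM of 9.33 and 25.7 on 750 and 875 reads, a rise of 2.49-fold (interval 2.26 to 2.75). Col1a2, its α2 partner (chromosome 6, 4505618 to 4541543), had 0.450 and 14.7 on 59 and 872 reads, a rise of 31.5-fold (interval 24.2 to 41.8). Both chains belong to the same protein, and their intervals did not overlap.

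Col3a1, the chain of type III collagen in pliable tissues (chromosome 1, 45311538 to 45349706), went from 0.688 to 20.9 FPKM. Its reads numbered 114 and 1597, a rise of 29.9-fold (interval 24.7 to 36.5). Col5a2, a chain of the type V collagen that starts type I fibrils, lies near Col3a1 on chromosome 1 (45374331 to 45503282) and had 0.00429 and 7.80 on 1 and 872 reads. That ratio was 1860, with an interval of 333.0 to 73564. Col27a1, a cartilage fibril collagen, had 0.0293 and 2.11 on 5 and 160 reads, 68.3-fold (interval 28.7 to 213).

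The fibril-forming members that fell were Col11a2 and Col5a1. Col11a2, a chain of the type XI collagen of cartilage, had an FPKM of 2.85 and 0.0804 on 253 and 3 reads, a wild type to KO ratio of 39.5 (interval 13.4 to 193). Col5a1, which pairs with Col5a2, had 1.16 and 0 on 233 and 0 reads, at least 36.4-fold lower in the KO. The partners of type V collagen were thus each seen almost solely in opposite libraries. The remaining fibril-forming members, Col2a1, Col5a3 and Col11a1, had at most 3 reads in either library.

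The upstream sequence of 2 of the fibril-forming genes with the largest rises on many reads is shown here, as 250 bases before the RefSeq start in build GRCm38.p6, with CG dinucleotides, the sites that Uhrf1 reads, in capitals. The Col1a2 stretch is chr6:4505368-4505617 and the Col3a1 stretch chr1:45311288-45311537, both on the plus strand.
Col1a2: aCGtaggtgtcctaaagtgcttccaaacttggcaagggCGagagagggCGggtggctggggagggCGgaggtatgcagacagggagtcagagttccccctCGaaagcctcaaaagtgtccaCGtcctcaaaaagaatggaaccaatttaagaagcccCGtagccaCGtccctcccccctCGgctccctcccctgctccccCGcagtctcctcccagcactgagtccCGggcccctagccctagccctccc
Col3a1: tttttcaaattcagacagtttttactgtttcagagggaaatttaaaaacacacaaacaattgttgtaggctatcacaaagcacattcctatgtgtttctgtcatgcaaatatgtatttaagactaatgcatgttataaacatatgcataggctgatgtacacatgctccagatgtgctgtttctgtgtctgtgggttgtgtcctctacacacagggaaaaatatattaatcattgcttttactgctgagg
The Col1a2 stretch held 11 CG dinucleotides and the Col3a1 stretch 0. Of 32851 such windows from RefSeq, 35.6% held 11 or more. The motif TATAAA, searched on both strands, was in the Col3a1 stretch and in 12.4% of all windows. The motif CCAAT, likewise on both strands, was in the Col1a2 stretch and in 33.8% of all windows.

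Basement membrane collagens were low in the wild type. Of 4 members 2 rose and none fell, and the summed FPKM was 0.253 in wild-type and 10.1 in KO cells. Col4a1 and Col4a2 encode the chains of the common type IV network and start next to each other on opposite strands of chromosome 8. Col4a1 had an FPKM of 0.230 and 2.18 on 35 and 148 reads, a rise of 9.02-fold (interval 6.21 to 13.4). Col4a2 had 0 and 7.92 on 0 and 406 reads, at least 289-fold higher in the KO. Exons of the pair overlap on opposite strands in GENCODE M21, and the sources used here do not give strand use, so some reads could belong to either. Col4a3 and Col4a4, of kidney and lung basement membranes, had at most 4 reads in either library.

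Type VI collagen, which forms beaded filaments around cells, moved unevenly. Col6a2 rose, with an FPKM of 0.984 and 3.75 on 63 and 104 reads, 3.52-fold (interval 2.55 to 4.90). Col6a1, the chain it pairs with, had 3.35 and 1.47 on 268 and 52 reads, a KO to wild type ratio of 0.414 (interval 0.301 to 0.559) that did not pass the size rule. Their intervals lie on opposite sides of equality. Their summed FPKM, 4.33 and 5.22, was close to level between the libraries, and Col6a4 had no reads.

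**Figure D2:**
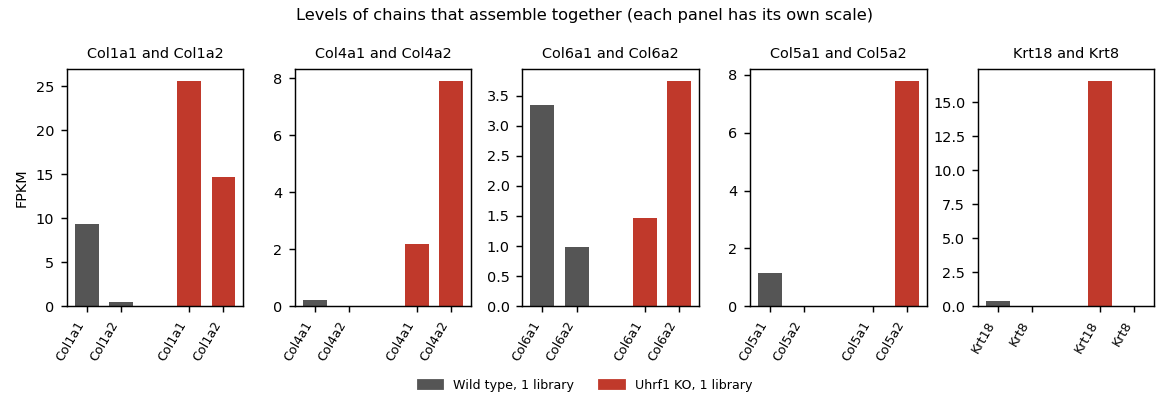
FPKM of 5 pairs of chains that assemble together, 1 panel a pair with its own scale; grey bars are the wild-type library and red bars the KO library, each a single value. The partners keep no common ratio: Col1a1 was 20.7 times Col1a2 in the wild type and 1.75 times in the KO, and Krt8 is listed at 0 in both libraries beside Krt18 at 16.6 in the KO.

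Fibril-associated collagens bind the surface of fibrils. Of 6 members 1 rose (16.7%), near the 13.7% of all genes, and none fell. No member had reads in both libraries. Col14a1 rose from 0 to 1.85 on 0 and 166 reads, at least 118-fold. Col16a1 had 0 and 0.838 on 0 and 33 reads, just short of the size rule at a log2 ratio of 0.88. Col9a3, at a locus shared with Tcfl5 in the files, had 9 wild-type reads and 0 KO reads. Col12a1, Col19a1 and Col20a1 had at most 3 reads in either library.

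The remaining collagens went both ways or had no reads in either library. Col23a1, a transmembrane collagen, rose from an FPKM of 0.474 to 4.20 on 71 and 284 reads, 8.53-fold (interval 6.56 to 11.2). Col18a1, the source of the vessel inhibitor endostatin, had 0 and 12 reads. Col8a1, of the network under endothelium, had 0.728 and 0.0681 on 152 and 7 reads, a wild type to KO ratio of 10.2 (interval 4.82 to 25.7), short of the size rule because of its low level. Col7a1, the anchoring fibril of skin, had 0.579 and 0 on 93 and 0 reads, at least 14.5-fold lower in the KO and also short of the rule. No reads were seen for Col8a2, Col10a1, Col13a1 or Col17a1. Over all 31 collagens 10 rose (32.3%) and 2 fell (6.45%), against 13.7% and 16.0% of all genes. Their summed FPKM was 21.1 in wild-type and 93.9 in KO cells, a ratio of 4.46.

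Keratins were fewer and more divided. Of 19 members 3 rose (15.8%) and 2 fell (10.5%), against 13.7% and 16.0% of all genes, and the summed FPKM was 9.75 and 31.0, a ratio of 3.18. By scaled counts, on 380 and 324 reads, that ratio was 1.82 (interval 1.56 to 2.12). Its log2 value of 1.67 by FPKM was 0.62 without Krt18. All 3 that rose were type I keratins of simple or basal epithelium. Krt18 (chromosome 15, 102028216 to 102032026) had an FPKM of 0.365 and 16.6 on 9 and 177 reads, 42.0-fold higher in the KO (interval 21.6 to 93.3). Krt19 (chromosome 11, 100140810 to 100145926) had 0 and 11.7 on 0 and 111 reads, at least 78.9-fold higher. Krt17, of stressed and basal epithelium, had 0 and 2.26 on 0 and 23 reads, at least 16.4-fold higher.

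The type II chains that usually pair with them and have a row in the files were not seen in the KO. Krt8, the usual partner of Krt18 in simple epithelium and thymic cortex, is listed at 0 in both libraries. Krt7 is also listed at 0 in both, and Krt5, of basal and medullary epithelium, had 9 wild-type reads and 0 KO reads. All 11 type II keratins together had 2 reads in the KO, against 322 for the 8 type I keratins. An exact 0 in these files can also be a failed estimate, and Crtap, a collagen-modifying protein at 35.6 FPKM in wild-type cells, is likewise listed at 0 in the KO.

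Krt10 and Krt83 fell. Krt10, a type I keratin of differentiated epidermis, had an FPKM of 4.55 and 0.159 on 191 and 3 reads, a wild type to KO ratio of 29.8 (interval 10.1 to 146). Krt83, a hair keratin, had 3.98 and 0 on 128 and 0 reads, at least 20.0-fold lower in the KO. Krt81, Krt83 and Krt85 share a locus in the files and are close copies, and RefSeq gives the identifier listed as Krt83 the symbol Krt87, so these values are uncertain. Krt12, Krt75 and Krt222 had reads in both libraries with intervals that included equality, Krt73 and Krt76 had 1 read in 1 library, and no reads were seen for Krt1, Krt20, Krt24 or Krt80.

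The stretches upstream of the simple-epithelium pair, which differed in level within the KO, are chr15:102027966-102028215 on the plus strand for Krt18 and chr15:102004343-102004592 on the minus strand for Krt8, with CG in capitals as before.
Krt18: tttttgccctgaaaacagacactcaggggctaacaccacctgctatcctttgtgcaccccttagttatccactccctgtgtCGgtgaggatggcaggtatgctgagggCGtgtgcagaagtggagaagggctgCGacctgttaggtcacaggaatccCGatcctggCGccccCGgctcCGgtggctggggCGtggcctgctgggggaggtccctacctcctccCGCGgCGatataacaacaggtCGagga
Krt8: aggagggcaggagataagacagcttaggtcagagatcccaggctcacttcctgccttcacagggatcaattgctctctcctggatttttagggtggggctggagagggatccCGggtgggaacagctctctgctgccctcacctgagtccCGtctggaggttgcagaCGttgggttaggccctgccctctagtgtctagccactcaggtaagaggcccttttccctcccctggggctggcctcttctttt
The Krt18 stretch held 12 CG dinucleotides and the Krt8 stretch 3. Windows were found for 36 of the 51 members. The median CG number was 13 over 10 windows of members that rose, 14 over 3 windows of members that fell, 5 over 25 windows of the rest, and 6 over all windows in the table. The windows of members that rose came from 9 of the 14 and ranged from 0 to 31. Whether CG content bears on any change was not tested.

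**Figure D3:**
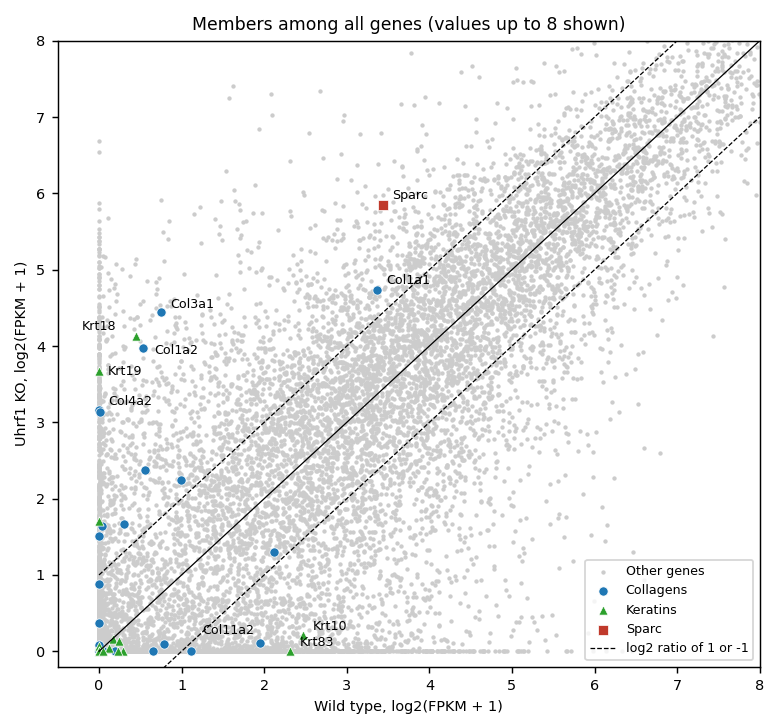
KO level against wild-type level of all genes, both as log2(FPKM + 1), with collagens as circles, keratins as triangles and Sparc as a square; dashed lines mark a log2 ratio of 1 and -1. Of the members 14 lie above the upper line and 4 below the lower one, within a cloud where 29.7% of all genes lie outside the lines.

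Several members had a level in 1 library and at most 3 reads in the other. Col4a2, Col5a2 and Krt19 reached an FPKM of at least 5 in the KO with at most 3 wild-type reads, 3 of 51 members (5.88%) against 1.33% of all genes. In the other direction Col11a2, Col5a1, Krt10 and Krt83 reached 1 FPKM in wild-type cells with at most 3 KO reads, 4 of 51 (7.84%) against 5.63% of all genes. Col4a3bp, the ceramide transfer gene outside the families, had 5.15 and 0.132 on 1255 and 16 reads, a wild type to KO ratio of 36.8 (interval 22.5 to 64.5).

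Of 20 genes for collagen folding, crosslinking and trimming 5 rose and 1 fell, with a median log2 ratio of 0.02. In the wild type 7 of them are listed at 0 and in the KO 7, of which 4 are at 0 in both. P4hb and Ppib, which serve protein folding in every cell, held most of the summed FPKM of 291 and 317. Plod1, a lysyl hydroxylase, rose from 0.833 to 22.1, and P4ha2, a prolyl hydroxylase, from 0 to 8.95. Loxl1, a crosslinking oxidase, rose from 0.0874 to 2.07, while Serpinh1, the chaperone that collagen-secreting cells require, had 0 and 0.259. Crtap was the gene that fell.

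The matrix genes around the fibrils were mostly low and went both ways. Of 20 fibril partners none rose and none fell by the size rule, which shrinks such low genes, but 10 had a higher FPKM in the KO and 6 a lower one. Their summed FPKM was 19.4 in wild-type and 15.9 in KO cells. Fbln1, a matrix glycoprotein, had 10.8 and 5.49, and Thbs1, thrombospondin, had 1.68 and 0.343. Vcan, a large proteoglycan, had 0.999 and 0, and fibronectin (Fn1) had 0.0949 and 1.06. Fbn1, of microfibrils, had 0 and 0.755 on 0 and 94 reads, at least 66.8-fold higher in the KO. Thbs2, a second thrombospondin, had 0 and 36 reads, at least 25.6-fold higher, and the fibril-binding proteoglycan Fmod had 3 and 14 reads, 9.96-fold higher (interval 2.78 to 54.0). In the other direction Fbln2 had 50 and 0 reads, at least 7.81-fold lower in the KO. Eln had 26 and 1 reads, a KO to wild type ratio of 0.0821 (interval 0.00200 to 0.499).

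Of 13 laminins and other basement membrane partners of type IV collagen 1 rose and none fell, and their summed FPKM was 1.27 in wild-type and 5.21 in KO cells, a ratio of 4.11. The linker Nid1 was the gene that rose, on 1 and 195 reads. The laminin chains Lama2, Lamc1 and Lamb2 were higher in the KO without passing the size rule. Lama2 had 0 and 120 reads, at least 85.3-fold higher. Lamc1 had 3 and 58 reads, 41.2-fold (interval 13.4 to 206), and Lamb2 had 50 and 52 reads, 2.22-fold (interval 1.48 to 3.34). The proteoglycan Hspg2, perlecan, was lower, with 135 and 18 reads. Of the list 4 genes had a higher FPKM in the KO and 4 a lower one.

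Relatives of Sparc and matrix proteases had larger changes. Of 6 other genes of the Sparc family 3 rose and 1 fell. Sparcl1 rose from 0.726 to 33.5, 45.0-fold (interval 35.3 to 58.3), Spock2 from 0.184 to 12.1 and Fstl1 from 0.00767 to 2.07, while Smoc1 fell from 1.75 to 0. Of 12 matrix proteases and inhibitors 5 rose and 1 fell, Mmp15, from 1.59 to 0. By FPKM alone 7 of the 12 were higher in the KO and 5 lower. Mmp2, a gelatinase, rose from 0 to 14.7, its activator Mmp14 from 0.0187 to 3.78, Mmp11 from 2.26 to 41.6 and the inhibitor Timp3 from 0.106 to 5.86. Of 10 collagen receptors 1 rose, Cd44, from 0.950 to 3.51, and none fell. Itgb1, the shared integrin chain, had 8.05 and 13.4, and Ddr1, a receptor kinase for collagen, had 18.2 and 12.4.

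Partners of keratins went both ways. Of 19 desmosome and epithelial junction genes 1 rose and 2 fell, with a median log2 ratio of -0.01. The tight junction gene Cldn3 rose from 0 to 17.5, while Epcam fell from 1.07 to 0 and the envelope gene Evpl from 1.77 to 0. Of 12 other intermediate filament genes 4 rose and 2 fell. Gfap, the filament of astrocytes, rose from 4.84 to 109 and Nefm, of neurons, from 0.103 to 5.22, while the nuclear lamins Lmna and Lmnb1 fell from 12.2 to 1.11 and from 24.4 to 4.09. Vim, the filament of lymphocytes and stroma, rose from 335 to 735, and Nefh, of neurons, from 12.6 to 34.5.

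Markers of stromal cells outside the families were set beside these values, since the collagens and keratins are usually read as stromal RNA. Of 11 thymic epithelial markers 1 rose, Cldn3, at 17.5 in the KO, and 1 fell. Epcam had 1.07 and 0, Psmb11, the proteasome subunit of cortical epithelium, had 0.195 and 0.113, and Aire and Prss16 are listed at 0 in both libraries. Ccl25, a chemokine of thymic epithelium, had 10.1 and 6.15. Of 12 fibroblast markers 1 rose, Pi16, from 0 to 20.8, and none fell. Pdgfra and Postn are listed at 0 in both, and decorin (Dcn) had 4.67 and 5.86. The summed FPKM was 17.5 and 28.8 for the epithelial list and 16.3 and 35.8 for the fibroblast list. In the KO, Cldn3 alone gave 17.5 of the 28.8 and Pi16 alone 20.8 of the 35.8. Of the epithelial list 3 genes had a higher FPKM in the KO and 5 a lower one. Of the fibroblast list 7 were higher and 2 lower.

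Vessel markers were divided as well. Of 12 endothelial markers 2 rose and 1 fell, with a summed FPKM of 64.0 and 60.3. Cldn5 rose from 0.298 to 19.7 and Plvap from 3.73 to 17.6, while Eng fell from 42.9 to 2.17. Kdr, Tek, Flt1, Emcn and Esam are listed at 0 in both, Cdh5 had 0 and 0.0634, and Pecam1, which T cells also express, had 16.5 and 20.7. Of 6 smooth muscle and pericyte markers none rose and 1 fell, Tagln, from 2.73 to 0.102, and their summed FPKM was 5.01 and 1.22. Each of the epithelial, fibroblast and endothelial lists thus held markers at 0 in both libraries and markers above 10 FPKM in at least 1 of them. The part of such cells in the values of the members was not tested. In such bulk samples fewer cells of a type and less RNA per cell cannot be told apart.

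Markers of other cells, and of the sorted cells themselves, differed in direction from list to list. Of 9 macrophage genes 7 rose and none fell, and of 9 erythroid genes 5 rose and none fell. Of 7 T cell genes 2 rose and 1 fell. Of 5 iNKT genes 1 rose and 3 fell. Tbx21 rose from 1.94 to 13.0, and Zbtb16 was among those that fell, from 114 to 41.9. A list of 20 glial and neuronal genes, drawn up after Gfap and Sparcl1 had been seen, had 13 that rose and 3 that fell.

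**Figure D4:**
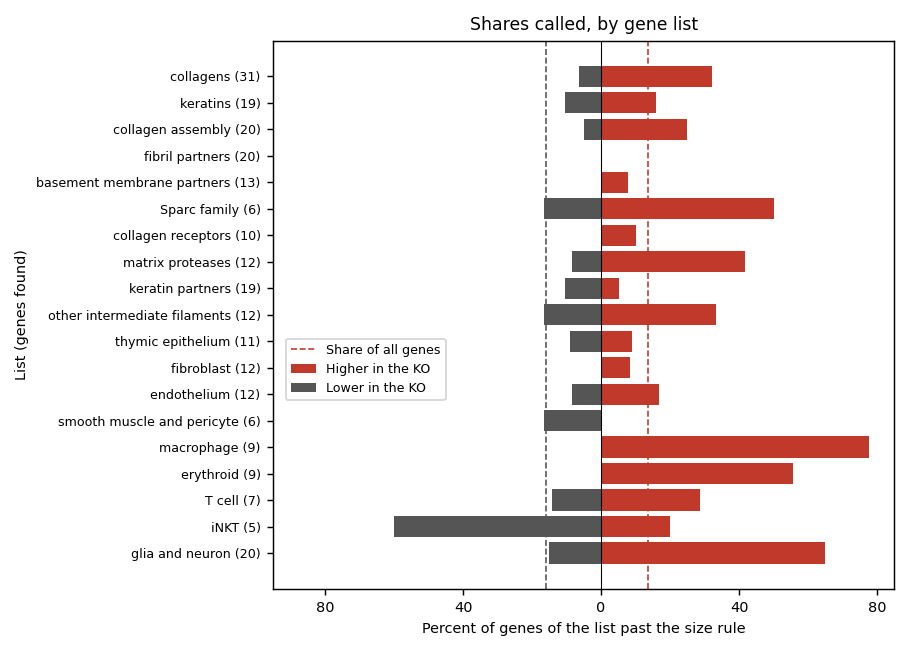
Percent of genes past the size rule, higher in the KO to the right and lower to the left, for collagens, keratins and 17 gene lists with the number of genes found; dashed lines are the shares over all genes, 13.7% and 16.0%. Macrophage genes (7 of 9) and glial and neuronal genes (13 of 20) reach furthest to the right, while the fibril partners show no gene past the rule on either side.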

How the data were processed

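RNA was measured in 2 libraries of sorted stage 1 iNKT cells, a wild-type and a Uhrf1 KO library by their genotype label. The labels' protocols name the TruSeq RNA kit. TopHat2 2.0.9, Cufflinks 2.1.1 and build mm10 were used, per the submitters' processing notes; the sources used here do not give their roles, the annotation or strand use. The authors deposited an FPKM value per gene, per the file headers, and a column headed count. These deposited count values were a scaled signal: to within 0.01 read, or the rounding of large values, 98.3% of nonzero wild-type values were whole multiples of 0.799 and 98.7% of nonzero KO values of 1.70. Division by these steps gave the reads; a minority stayed fractional and no count model was used, since 1 library a group has no residual spread.

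Calls were made over all 16386 genes without a filter on low values, with a pseudocount of 1 and a size rule of 1. Of the 52 matched genes 51 were found in RefSeq (GRCm38.p6) by identifier. Exon overlaps came from GENCODE M21. The steps were tested on simulated counts of 7817 genes for this comparison: 100 of 100 rises and 99 of 100 falls of 4-fold were called, and 3 of 7617 unchanged genes. Those counts held counting noise alone, so they give no rate of false calls between separate samples. With a pseudocount of 1, a gene below 1 FPKM in the wild type cannot be called as a fall. Of the 51 members 7 reached that level, so the 99 of 100 falls do not carry over to the others. How often a 4-fold rise or fall would be called at the levels of the members, those 7 included, was not tested. Col8a1, at a wild type to KO ratio of 10.2, was not called. Rises of low genes are shrunk as well.

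Genes named in full were Sparc, a fixed set of well known members, and each member past the size rule. Krt14, in that set, and Foxn1, among the markers, were not analysed here. Up to 4 genes of each other list were named, those with the largest change and at least 10 reads in either library, and a set of defining markers. Further list genes (P4hb, Ppib, Serpinh1, Vim, Nefh, Fbn1, Thbs2, Fmod, Fbln2, Eln, Hspg2, Mmp15, Cnp and markers at 0) were named after their values were seen. The members and the 16 lists were chosen with earlier results of these data known; 170 of 199 list names were found. A few list genes are not reported here by name. Alternatives were other pseudocounts, filters, size rules and scalings, and scaled counts in place of FPKM. Computation used scipy 1.17.1, pandas 2.3.3 and numpy 2.4.6 under Python 3.11.15, and figures matplotlib 3.10.9.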

Additional observations from a re-analysis of the deposited data

How the results depend on the processing

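The 14 members that rose and 4 that fell became 16 and 10 with a pseudocount of 0.1, and 8 and 0 with 5. Size rules of 2 and 0.5 gave 7 and 2, and 15 and 7. Scaled counts in place of FPKM gave 20 and 15. Requiring a mean FPKM of 1 gave 13 and 3, and rescaling to the median or upper quartile left 14 and 4. Of the settings chosen after the data were seen, leaving out Krt81, Krt83 and Krt85 gave 14 and 3, and more than 10 reads in either library gave 14 and 4. Pseudocounts, filters and size rules cannot turn the direction of a gene, so they do not test it. Under scaled counts and the rescalings each of the 18 members kept its direction. Of the 18, 10 fell short of the size rule with a pseudocount of 5, and 9 fell short of a size rule of 2.

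The partner lists had 20 genes that rose and 7 that fell, against 38 and 15 with a pseudocount of 0.1, 12 and 3 with 5, and 3 falls once a mean FPKM of 1 was required. Members with reads in the KO alone numbered 9, or 9.91 with the wild type thinned to the KO depth. The log2 ratio of summed collagen FPKM was 2.16, and 2.03 by upper quartile, 2.50 by scaled counts and 2.54 without Col1a1. That of keratins was 1.67, and 0.86 by scaled counts and 0.62 without Krt18. For Sparc it was 2.53, and 2.40 to 2.54 over the alternatives. No paired analysis was possible because each group has 1 library, and for the same reason no library could be left out. The depth leaves members under about 3 reads undecided.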

Other observations

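Glial and neuronal genes, named after some of their values were seen, were mostly higher in the KO library, as Sparc, Sparcl1 and Gfap were. Whether that library holds RNA of another tissue was not tested. S100b, an astrocyte calcium-binding protein, had 0 FPKM in wild-type cells and 31.6 in KO cells on 783 reads. Snap25, of the synapse, had 0 and 11.9 on 483 reads, and Mag, of myelin, had 0.0648 and 16.1 on 3 and 324 reads. The myelin basic protein gene Mbp had 54.4 and 238.

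Other genes of the same tissues went the opposite way. The neuronal genes Syt1, Syp and Map2 had 0.772 and 0, 4.55 and 0.0755, and 0.977 and 0.0152. The kinase genes Camk2a and Camk2b had 3.91 and 0.412, and 4.41 and 0.844. Aqp4, the astrocyte water channel, was low but higher in the KO, at 0.0205 and 0.0896 on 5 and 11 reads. Of the 20 genes in that list 15 had a higher FPKM in the KO and 5 a lower one.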
